A study of Rattus norvegicus with 18 samples.

Results

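The genes described here are those of Fcγ receptors and Syk signalling, the route by which phagocytes take up antibody-coated material. They were chosen by name, as 9 gene symbols: the receptors Fcgr1a, Fcgr2a, Fcgr2b and Fcgr3a, the shared signalling subunit Fcer1g, the intracellular IgG carrier Fcgrt, and the kinases Syk, Lyn and Btk. All 9 were listed in all 18 libraries, among 17307 genes in the astrocyte tables and 17327 in the microglia tables, and all 9 passed the filter on low counts in both cell types. RNA was sequenced from primary glia of wild-type (WT) Sprague–Dawley rats, taken from the cortex at postnatal day 2. The groups were astrocytes and microglia left untreated (control), treated with fibrils of wild-type Aβ42, the longer and main peptide of parenchymal plaques, or treated with fibrils of wild-type Aβ40, the peptide common in vascular amyloid. Each cell type and treatment had 3 replicates, collected at 24 h. Both cell types came from mixed glial cultures separated by shaking, so that a culture of either could hold some cells of the other.

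Fcγ receptors are surface proteins of myeloid cells that bind the constant part of IgG. The activating receptors signal through the immunoreceptor tyrosine-based activation motif, or ITAM, carried by the FcRγ chain that Fcer1g encodes. Src family kinases such as Lyn phosphorylate the motif, the kinase Syk docks on it, and Syk together with Btk starts the calcium, actin and oxidase responses of phagocytosis. Fcgr2b is the inhibitory Fcγ receptor, whose cytoplasmic motif recruits the lipid phosphatase SHIP1 (Inpp5d). Fcgrt encodes the neonatal Fc receptor FcRn, which pairs with β2-microglobulin inside the cell and returns IgG and albumin to the surface. Syk is also used by other microglial receptors coupled to ITAM adaptors, among them Trem2 with Tyrobp and the lectin Clec7a.

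The promoter of Syk is shown because Syk fell with both fibrils in both cell types. The promoter of Fcgrt is shown because Fcgrt fell in microglia while it was not called in astrocytes, and that of Fcgr3a because it shares a 10-base match with Fcgrt. Each run is the 250 bases before the annotated start, 5′ to 3′ on the gene's own strand, from RefSeq on rat assembly GRCr8, which is not the assembly used for counting. Capitals mark matches, on either strand, to GAGGAA (a core of PU.1 sites), TTCNNNGAA (GAS), the ISRE pattern (GAAA, any 2 bases, GAAA), the NF-κB pattern (GGGA, any 4 bases, CC) or TGANTCA (AP-1).
Syk, chr17:12813274-12813523, minus strand: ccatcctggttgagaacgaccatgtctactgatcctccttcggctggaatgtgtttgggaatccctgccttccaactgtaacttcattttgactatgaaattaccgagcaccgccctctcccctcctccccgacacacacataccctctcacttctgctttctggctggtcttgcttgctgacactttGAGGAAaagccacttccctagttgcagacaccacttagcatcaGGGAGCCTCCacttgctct
Fcgrt, chr1:104720027-104720276, minus strand: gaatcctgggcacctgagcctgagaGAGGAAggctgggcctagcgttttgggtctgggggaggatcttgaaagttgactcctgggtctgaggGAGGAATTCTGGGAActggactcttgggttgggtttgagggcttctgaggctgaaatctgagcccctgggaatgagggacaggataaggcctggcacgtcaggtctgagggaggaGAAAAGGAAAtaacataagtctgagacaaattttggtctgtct
Fcgr3a, chr13:85782386-85782635, plus strand: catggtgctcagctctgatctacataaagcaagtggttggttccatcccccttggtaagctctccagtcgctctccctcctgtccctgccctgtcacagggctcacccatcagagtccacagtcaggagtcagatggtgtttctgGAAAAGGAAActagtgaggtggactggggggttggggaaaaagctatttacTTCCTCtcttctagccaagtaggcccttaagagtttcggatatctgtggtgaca
In Syk the matches were GAGGAA at −62 and an NF-κB match at −19 from the start. In Fcgrt they were GAGGAA at −225 and −158, the GAS match TTCTGGGAA at −152, which directly follows the second GAGGAA, and an ISRE match at −43. In Fcgr3a they were an ISRE match with the same letters at −105 and GAGGAA on the opposite strand at −54. RefSeq promoters were matched for 5 of the 9 genes (Fcgr2a, Fcgr3a, Fcgrt, Syk and Btk), and were not matched for Fcgr1a, Fcgr2b, Fcer1g and Lyn. Counting 50 bases after the start as well, these genes had 6 promoters, 2 of them of Fcgr2a. GAGGAA occurred in 5 of the 6, the second Fcgr2a promoter being without it, against 27.6% of 33469 rat promoters. The ISRE letters occurred in 2 of the 6 (3.92% of all), the NF-κB letters in 2, of Fcgr2a and Syk (19.3%), the GAS letters in 1, that of Fcgrt (8.87%), and the AP-1 letters in 1, of Fcgr2a (7.33%). The single match in Btk lay 9 bases into the transcribed side. A match describes these letters and is no evidence of binding.

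Counts on genes ranged from 3674043 to 19013919 per library in astrocytes and from 2271834 to 22274367 in microglia. Levels are given as scaled CPM, the counts of a gene relative to the library's total after TMM scaling, and 3 counts corresponded to 0.160 to 0.835 CPM in astrocytes and 0.130 to 1.38 CPM in microglia. The markers followed the labelled cell types. The 16 microglia markers summed to 11483 to 13467 CPM in untreated microglia and to 619 to 779.5 CPM in untreated astrocytes, and the 12 astrocyte markers to 307 to 347 CPM and 10156 to 12564 CPM. Of the 18 libraries, 2 stood apart. Replicate 1 of microglia with Aβ42, with 2613723 counts, correlated across genes with the Aβ40 libraries (mean r = 0.977) more closely than with the other libraries of its own group (mean r = 0.960), which had r = 0.995 with each other. Whether its label is right was not tested, and the Aβ42 values in microglia are given with that doubt. Replicate 2 of the untreated astrocytes had mean r = 0.945 with the other 2 controls, which had r = 0.981 with each other, and it had the highest share of counts on rows that name no gene, 34.2%. Calls that change without either library are given with and without it, and without the latter the calls of the 9 genes for each fibril in astrocytes were kept, with Fcgr2a called as well with Aβ42. CPM values do not correct for gene length, so levels of different genes are not compared with each other.

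In microglia, fibrils changed the genes of this pathway in opposite directions. The inhibitory receptor Fcgr2b rose 2.47-fold with Aβ42 and 3.56-fold with Aβ40, while Syk, Btk, Fcgrt and the high-affinity receptor Fcgr1a fell with both. The signalling subunit Fcer1g and the kinase Lyn were not called with either fibril. In a fit of the compared groups alone both were called with Aβ40, Fcer1g at −0.26 (adjusted p = 0.0329) and Lyn at 0.22 (0.0336), as were all 9 genes. A gene was called at an adjusted p under 0.05 at any fold (edgeR's quasi-likelihood test, Benjamini-Hochberg adjustment over all genes). With Aβ42, 6 of the 9 were called, 2 higher and 4 lower, where 53.7% of 10837 genes were called (27.1% higher and 26.6% lower). With Aβ40, 6 were called, 1 higher and 5 lower, where 41% were called (19.6% higher and 21.4% lower). The libraries of a fibril and the controls did not overlap for 6 of the 9 with Aβ42, 2 higher and 4 lower (54% of all genes, 25.8% higher and 28.2% lower), and for 8 with Aβ40, 2 higher and 6 lower (59.5% of all genes, 29% higher and 30.5% lower). Calls were thus common among all genes, and the same control libraries served both comparisons. The median log2 change of the 9 was −0.39 with Aβ42 and −0.56 with Aβ40, against 0.0096 and 0.0054 over all genes. In cultures of this kind, fewer cells of a type and less RNA per cell cannot be told apart.

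**Figure D1:**
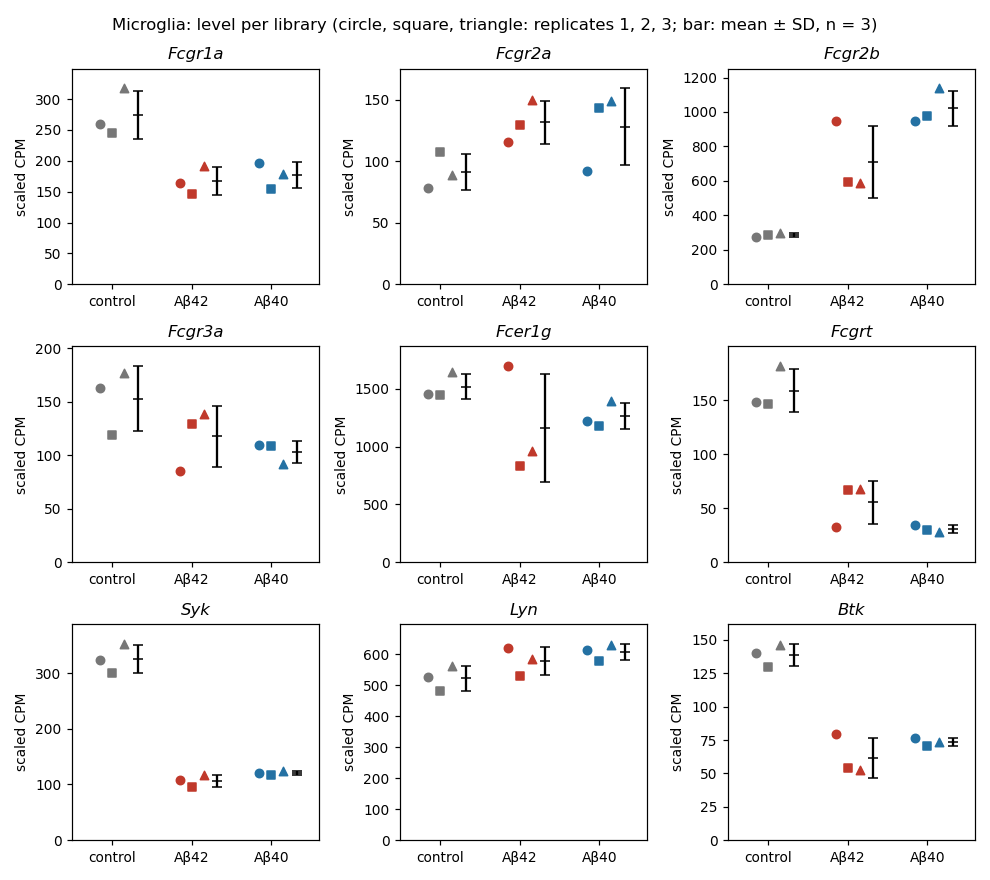
Level of each of the 9 genes in the 9 microglia libraries, in scaled CPM on axes that start at 0. Points are libraries (circle, square and triangle for replicates 1, 2 and 3) and bars are the mean ± SD of 3. Fcgr2b lay higher and Syk, Btk, Fcgrt and Fcgr1a lower in all fibril libraries than in all controls. Replicate 1 with Aβ42 lay away from the other libraries of its group for Fcgr2b, Fcgr3a, Fcer1g, Fcgrt and Btk.

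Among the activating receptors, Fcgr1a encodes the receptor that binds monomeric IgG with high affinity. It stood at 259.9, 245 and 318 CPM in the 3 untreated microglia libraries, at 164, 147 and 192 CPM with Aβ42 and at 196, 154 and 179 CPM with Aβ40. All fibril libraries lay below all controls. The log2 change was −0.71 (SE 0.14) with Aβ42 (adjusted p = 0.00116) and −0.64 (SE 0.14) with Aβ40 (adjusted p = 0.00320).

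The low-affinity receptors Fcgr2a and Fcgr3a, which bind IgG in complexes, gave calls near the threshold and of opposite sign. Fcgr2a was 77.9, 107 and 89.1 CPM in controls, 115, 129.6 and 149.6 CPM with Aβ42 and 91.9, 143 and 149 CPM with Aβ40. It was higher with Aβ42 in all 3 libraries, at a log2 change of 0.54 (SE 0.18) and adjusted p = 0.0249, and with Aβ40 the log2 change was 0.48 (SE 0.18) with overlapping libraries and adjusted p = 0.0541. Fcgr3a was 163, 119 and 177 CPM in controls, 85.2, 129.5 and 138 CPM with Aβ42 and 109.6, 109 and 91.5 CPM with Aβ40. It was lower with Aβ40, at −0.56 (SE 0.19) and adjusted p = 0.0299, and its change with Aβ42 was −0.36 (SE 0.18), adjusted p = 0.114. These calls depended on the libraries and settings used. Over 13 other settings and left-out libraries the adjusted p ran from 0.00204 to 0.0984 for Fcgr2a with Aβ42 and from 0.00176 to 0.139 for Fcgr3a with Aβ40, which was called in 7 of the 13. The call of Fcgr2a with Aβ42 was lost without control replicate 1 (adjusted p = 0.0984), control replicate 3 (0.0681) or Aβ42 replicate 3 (0.0965). That of Fcgr3a with Aβ40 was lost without control replicate 1 (0.105), control replicate 3 (0.139) or any Aβ40 replicate (0.0633 to 0.106), and with the replicate block (0.0541). Without control replicate 2, Fcgr3a was called lower with Aβ42 (adjusted p = 0.0400) and Fcgr2a higher with Aβ40 (0.0336), the latter also without Aβ40 replicate 1 (0.00763). In the RefSeq table of GRCr8, Fcgr3a and Fcgr3 are also older names of the present rat Fcgr2a, and the low-affinity receptor genes neighbour each other. How the counts treated reads shared by these similar genes is not given in the sources used here, so the division between Fcgr2a, Fcgr2b and Fcgr3a is less certain than the other values.

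Fcer1g, the FcRγ chain that Fcgr1a and Fcgr3a need for signalling, was 1459, 1450.5 and 1644 CPM in controls. With Aβ42 it was 1697, 831 and 960.1 CPM, replicate 1 above and the others below every control, and with Aβ40 it was 1222, 1179 and 1391 CPM, all below the controls. The log2 change was −0.39 (SE 0.21) with Aβ42 (95% interval −0.85 to 0.075, adjusted p = 0.141) and −0.26 (SE 0.21) with Aβ40 (95% interval −0.73 to 0.20, adjusted p = 0.353). Without replicate 1 of Aβ42 the change was −0.77 with adjusted p = 7.41e-06, so that this library decides the call.

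The inhibitory receptor Fcgr2b was 277, 286 and 298 CPM in untreated microglia. It was 950.0, 592 and 588 CPM with Aβ42 and 951, 975 and 1138 CPM with Aβ40. Every fibril library lay above every control, by a log2 change of 1.30 (SE 0.17) with Aβ42 (adjusted p = 4.77e-05) and 1.83 (SE 0.17) with Aβ40 (adjusted p = 3.62e-06). Without replicate 1 the Aβ42 value was 1.04, still called.

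Fcgrt, the FcRn heavy chain, fell furthest of the 9 with Aβ40. Its level was 149, 147 and 182 CPM in controls, 32.4, 66.5 and 67.6 CPM with Aβ42 and 34.5, 30.2 and 27.6 CPM with Aβ40. The log2 change was −1.46 (SE 0.21) with Aβ42 (adjusted p = 9.43e-05), or −1.25 without replicate 1, and −2.36 (SE 0.23) with Aβ40 (adjusted p = 4.54e-06), which is 5.13-fold lower. B2m, which encodes its partner β2-microglobulin, was not called in microglia, with log2 changes of 0.24 and 0.46.

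Among the kinases, Syk fell 3.06-fold with Aβ42 and 2.70-fold with Aβ40. Its level was 323, 301 and 352 CPM in controls, 108, 95.2 and 116 CPM with Aβ42 and 120.4, 118 and 124 CPM with Aβ40, a narrow spread within each group and no overlap with the controls. The log2 change was −1.61 (SE 0.11) (adjusted p = 1.47e-07) and −1.43 (SE 0.11) (adjusted p = 5.71e-07). Btk, a Tec family kinase that acts on phospholipase Cγ downstream of Syk, was 140.1, 129 and 146 CPM in controls. It was 79.2, 53.8 and 52.6 CPM with Aβ42 and 76.5, 70.7 and 73.5 CPM with Aβ40, below all controls in each case. The log2 change was −1.20 (SE 0.14) with Aβ42 (adjusted p = 2.29e-05) and −0.91 (SE 0.15) with Aβ40 (adjusted p = 0.000301). Lyn, the Src family kinase upstream of Syk, was 526, 481 and 561 CPM in controls, 619, 529.7 and 583 CPM with Aβ42 and 614, 579 and 629 CPM with Aβ40. Its log2 change was 0.14 with Aβ42 (95% interval −0.078 to 0.36, adjusted p = 0.251) and 0.22 with Aβ40 (95% interval −0.0047 to 0.44, adjusted p = 0.111), so that a fall as large as that of Syk lies outside both intervals.

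Ratios of the counts of a pair of genes in the same library do not depend on scaling. The count of Fcgr1a per count of Fcgr2b was 0.954 ± 0.105 in untreated microglia (SD, n = 3), 0.249 ± 0.0773 with Aβ42 and 0.174 ± 0.0278 with Aβ40. That of Fcgr3a per Fcgr2b was 0.533 ± 0.101, 0.181 ± 0.0797 and 0.102 ± 0.0192 in the same order, that of Fcgr2a per Fcgr2b 0.318 ± 0.0498, 0.198 ± 0.0689 and 0.125 ± 0.0255, and that of Fcer1g per Fcgr2b 5.29 ± 0.220, 1.61 ± 0.192 and 1.24 ± 0.0410. Each activating gene was therefore lower relative to the inhibitory receptor with both fibrils, Fcgr2a included although its own level was not lower. All of these ratios have Fcgr2b as denominator, so any gene that rose less than Fcgr2b gives a lower ratio. They restate the rise of Fcgr2b beside the changes given above and are not independent of each other. Syk per Lyn was 0.622 ± 0.00784 in controls, 0.184 ± 0.0134 with Aβ42 and 0.199 ± 0.00382 with Aβ40. In all 10 comparisons of a fibril with control the microglia libraries did not overlap. The two-sided exact permutation test gave p = 0.1 for each, the smallest value that 3 against 3 libraries allow, and 0.15 after Benjamini-Hochberg adjustment over 30 ratio tests. Without replicate 1 the Aβ42 means were 0.287 for Fcgr1a, 0.227 for Fcgr3a, 0.237 for Fcgr2a and 1.52 for Fcer1g, each per Fcgr2b.

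Microglia markers and markers of other myeloid and lymphoid cells moved in the same cultures. Of the 16 microglia markers, 13 were called lower with Aβ42 and 15 with Aβ40, Itgam was higher with both, and the summed level was 11483 to 13467 CPM in controls, 3529 to 4723 CPM with Aβ42 and 4140.4 to 4774 CPM with Aβ40. Of 5 border macrophage markers, Mrc1 was lower and Pf4 higher with both fibrils, and Cd163 was at 0 in every library. Lyve1 was called lower with Aβ42 alone, while its mean fell from 4.94 CPM to 2.70 with Aβ42 and 2.61 with Aβ40. The list summed to 1024 to 1123 CPM in controls, 341 to 430.4 CPM with Aβ42 and 302 to 313 CPM with Aβ40. Of 6 neutrophil or monocyte markers, S100a8 and S100a9 were higher with both fibrils, Mpo was at 0, Elane never exceeded 3 counts, and the sum was 0 to 0.579 CPM in controls, 4.0 to 13.9 CPM with Aβ42 and 6.71 to 12.3 CPM with Aβ40. Of 6 lymphocyte markers, Cd3e, Cd3g and Ms4a1 were at 0 in every microglia library, and Cd79b was lower with both fibrils, the list summing to 2.12 to 9.46 CPM in controls and to at most 0.483 CPM with fibrils. Fibroblast markers (6) summed to 64.8 to 81.1 CPM in controls and 143 to 172 and 126 to 131 CPM with Aβ42 and Aβ40, oligodendrocyte lineage markers (8) to 2465 to 2733, 2956 to 3811 and 2917 to 3568 CPM, and endothelial markers (6) to 186 to 189.9, 42.1 to 64.4 and 89.9 to 114 CPM. The part of these shifts in the receptor values was not tested.

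**Figure D2:**
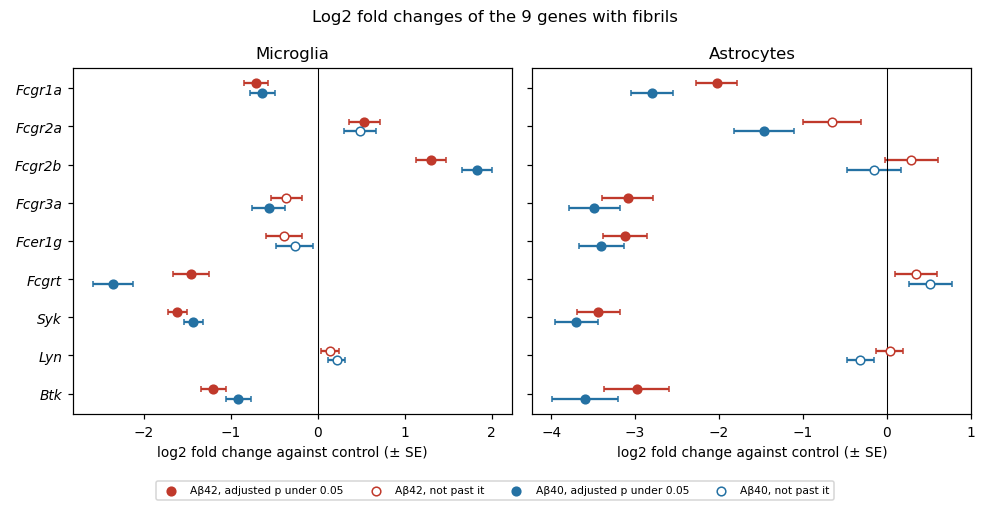
Log2 fold change against control (± SE) of the 9 genes in microglia (left) and astrocytes (right), with Aβ42 in red and Aβ40 in blue; filled points passed an adjusted p of 0.05. In microglia Fcgr2b lay furthest to the right and Fcgrt furthest to the left with Aβ40. In astrocytes Syk, Fcgr3a, Fcer1g and Btk lay between −3.70 and −2.98 with both fibrils, and Fcgr2b, Fcgrt and Lyn, none of them called, between −0.32 and 0.52.

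Between Aβ42 and Aβ40 in microglia, Fcgr2b and Fcgrt were called with all libraries, 2 of the 9, where 20.3% of genes were called (11.3% higher with Aβ42 and 9.01% lower), so that the share of these genes was near that of all genes. The libraries did not overlap for Fcgr2b and Syk, both lower with Aβ42 (29.3% of all genes did not overlap). Fcgr2b was lower with Aβ42 than with Aβ40, by a log2 difference of −0.53 (SE 0.17) and adjusted p = 0.0456. Fcgrt was higher with Aβ42, by 0.90 (SE 0.23) and adjusted p = 0.0259. For Syk the difference was −0.18 (95% interval −0.42 to 0.057), and for Lyn −0.074 (−0.29 to 0.15), neither of them called. Both calls rested on the fit and on which libraries were used. They were lost with the replicate block (adjusted p = 0.0642 for Fcgr2b and 0.0539 for Fcgrt) and with the compared groups alone (0.109 and 0.0788). Without replicate 1 of Aβ42, 5 genes were called: Fcgr2b at −0.79 (adjusted p = 5.38e-06), Fcgrt at 1.10 (2.46e-06), Fcer1g at −0.50 (0.000854), Btk at −0.47 (0.000324) and Fcgr3a at 0.36 (0.0296), in a fit that called 6004 genes in all. Without any 1 of the other 5 Aβ42 and Aβ40 libraries, 0 of the 9 were called, with 99 to 154 genes called in all. The counts of Fcgr2b in replicate 1 gave 950.0 CPM, within 1 CPM of the lowest Aβ40 library, and those of Fcgrt 32.4 CPM, inside the Aβ40 range.

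In astrocytes the receptors Fcgr1a and Fcgr3a, the FcRγ chain, Syk and Btk fell with both fibrils, and none of the 9 was called higher. With Aβ42, 5 of the 9 were called lower (Fcgr1a, Fcgr3a, Fcer1g, Syk and Btk) and 0 higher, where 37% of 11690 genes were called, 20.4% lower. With Aβ40, the same 5 and Fcgr2a were lower and 0 higher, where 33.3% were called, 18.4% lower (16.5% and 14.9% of genes were higher with Aβ42 and Aβ40). The libraries did not overlap for those 5 with Aβ42 (45.7% of all genes, 22.7% higher and 23% lower) and for 7 with Aβ40, Lyn being the other (43.2% of all genes). The median log2 change of the 9 was −2.03 with Aβ42 and −2.80 with Aβ40, against −0.0047 and 0.0017 over all genes. These levels were low. The fibril libraries held as few as 5 counts of Btk and 6 of Fcgr2a, all above the limit of 3.

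**Figure D3:**
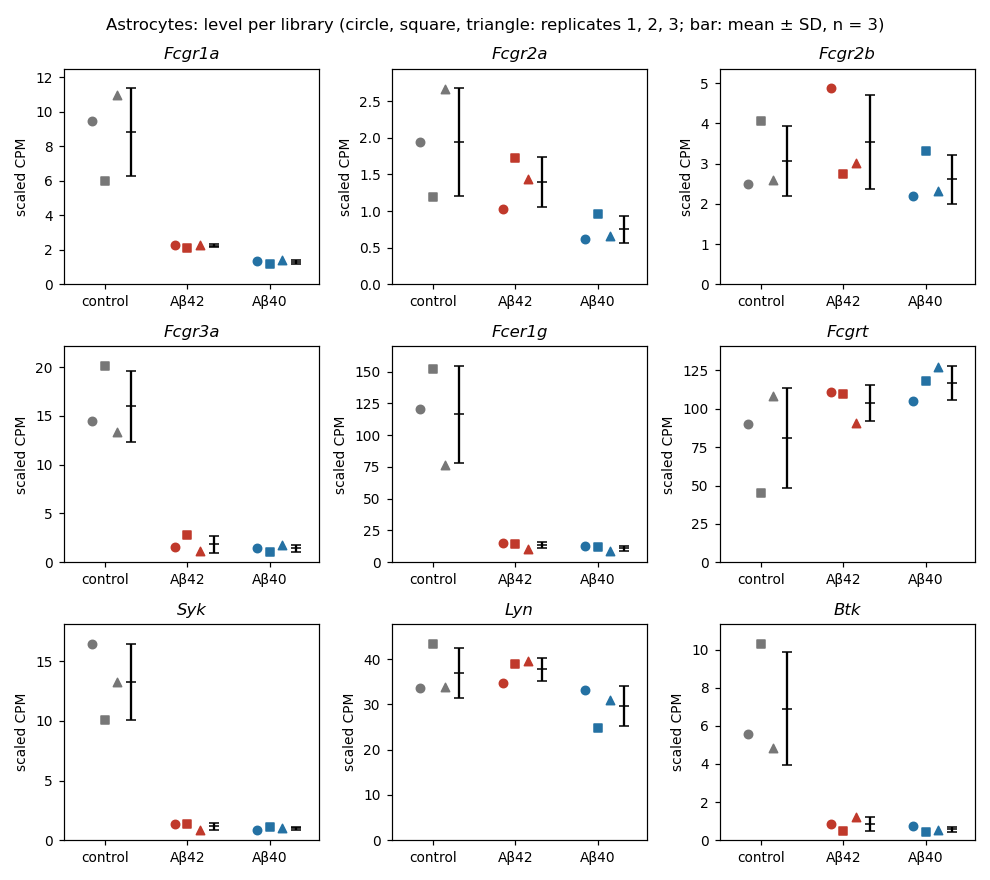
Level of each of the 9 genes in the 9 astrocyte libraries, in scaled CPM on axes that start at 0, drawn as for microglia (points are libraries, bars the mean ± SD of 3). Fcgr1a, Fcgr3a, Fcer1g, Syk and Btk lay far below the controls with both fibrils. Lyn, Fcgr2a, Fcgr2b and Fcgrt overlapped between control and Aβ42.

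Fcer1g was 121, 152 and 76.6 CPM in untreated astrocytes, 15.2, 14.1 and 10.6 CPM with Aβ42 and 12.5, 11.7 and 8.77 CPM with Aβ40. It fell by a log2 change of −3.12 (SE 0.27) with Aβ42 (adjusted p = 4.80e-06) and −3.40 (SE 0.27) with Aβ40 (adjusted p = 3.09e-06). Syk was 16.4, 10.1 and 13.3 CPM in controls (42 to 189 counts), 1.37, 1.31 and 0.841 CPM with Aβ42 (7 to 20 counts) and 0.831, 1.12 and 0.996 CPM with Aβ40 (8 to 21 counts). Its log2 change was −3.44 (SE 0.26) (adjusted p = 1.88e-06) and −3.70 (SE 0.25) (adjusted p = 1.13e-06). Syk with either fibril was thus more than 10 times lower than in untreated cells, at 10.8-fold and 13-fold.

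The receptors Fcgr3a and Fcgr1a and the kinase Btk followed the same course. Fcgr3a was 14.5, 20.1 and 13.4 CPM in controls, 1.51, 2.83 and 1.20 CPM with Aβ42 and 1.45, 1.07 and 1.73 CPM with Aβ40, log2 changes of −3.09 and −3.48. Fcgr1a was 9.46, 5.98 and 11.0, then 2.27, 2.12 and 2.28 and 1.35, 1.18 and 1.39 CPM, log2 changes of −2.03 and −2.80. Btk was 5.57, 10.3 and 4.85, then 0.824, 0.505 and 1.20 and 0.727, 0.428 and 0.531 CPM, log2 changes of −2.98 and −3.59. None of these fibril libraries reached a control, and the adjusted p was at most 0.000119 with edgeR. Fcgr2a was 1.95, 1.20 and 2.67 CPM in controls, 1.03, 1.72 and 1.44 with Aβ42 (log2 change −0.65, adjusted p = 0.169) and 0.624, 0.963 and 0.664 with Aβ40 (−1.46, adjusted p = 0.00910). Without control replicate 2 it was called with Aβ42 (adjusted p = 0.0471), and without control replicate 3 the Aβ40 call was lost, at −0.98 and adjusted p = 0.130.

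Fcgr2b, Fcgrt and Lyn were not called in astrocytes. Fcgr2b was 3.06 ± 0.876 CPM in controls (SD, n = 3), 3.54 ± 1.17 with Aβ42 and 2.61 ± 0.618 with Aβ40. Fcgrt was 89.9, 45.0 and 108 CPM in controls, 111, 109.9 and 90.6 with Aβ42 and 105, 118 and 127 with Aβ40, log2 changes of 0.35 (95% interval −0.21 to 0.91) and 0.52 (−0.043 to 1.08), so that a fall as in microglia lies outside the intervals. Without control replicate 3 Fcgrt was called higher with Aβ40, at 0.80 (adjusted p = 0.0354). Lyn was 33.7, 43.3 and 33.8 CPM in controls, 34.8, 38.8 and 39.6 with Aβ42 and 33.3, 24.8 and 30.9 with Aβ40, log2 changes of 0.034 (−0.32 to 0.39) and −0.32 (−0.67 to 0.038). As in microglia, Syk fell relative to Lyn: the count of Syk per count of Lyn was 0.371 ± 0.129 in controls, 0.0315 ± 0.00934 with Aβ42 and 0.0342 ± 0.0103 with Aβ40, with p = 0.1 for each fibril by the two-sided exact permutation test. Between Aβ42 and Aβ40, 0 of the 9 were called by edgeR in astrocytes, where 0.0855% of genes were called (0.0599% higher with Aβ42 and 0.0257% lower). The libraries did not overlap for Fcgr1a, Fcgr2a and Lyn, all higher with Aβ42 (18.9% of all genes, 9.13% higher and 9.75% lower). These 3, Fcgr1a, Fcgr2a and Lyn, had an unadjusted p under 0.05, and DESeq2 also called 0.

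Markers of microglia and of other cells moved in the same astrocyte cultures. Of the 16 microglia markers, 13 were called lower with Aβ42 and 15 with Aβ40, with a median log2 change of −3.28 and −3.16 (range −9.26 to 0.31 and −8.80 to 0.35), and none was higher. Their summed level was 619 to 779.5 CPM in untreated astrocytes, 204 to 220.5 CPM with Aβ42 and 173 to 185 CPM with Aβ40. Of the markers that define microglia, Csf1r went from a mean of 124 CPM to 4.97 and 2.95 CPM and Cx3cr1 from 26.0 to 0.023 and 0.040 CPM. Of 5 border macrophage markers Mrc1 and Lyve1 were lower, Cd163 was at 0, and the sum was 19.2 to 22.5 CPM in controls and 4.32 to 5.66 and 3.48 to 5.30 CPM with Aβ42 and Aβ40. Of 11 astrocyte markers tested, 8 were lower and 2 higher with Aβ42, and 7 lower and 3 higher with Aβ40. Gfap was lower with both, from a mean of 2839 to 1316 and 1574 CPM, while Aldh1l1, from 38.7 to 123 and 106 CPM, and Slc1a2 were higher with both, and Aqp4 was higher with Aβ40. The astrocyte markers summed to 10156 to 12564 CPM in controls, 6259 to 6391 CPM with Aβ42 and 7004 to 7191 CPM with Aβ40. Of 6 neuron markers 5 were lower with each fibril, of 6 fibroblast markers 3 and of 8 oligodendrocyte lineage markers 5, and none was higher. In control, Aβ42 and Aβ40 the neuron markers summed to 211 to 237, 80.5 to 98.7 and 93.7 to 109.9 CPM, the fibroblast markers to 219.8 to 246, 74.0 to 96.3 and 117 to 136 CPM, and the oligodendrocyte lineage markers to 2134 to 3255, 1918 to 2089 and 2011 to 2060.1 CPM. The lymphocyte markers measured never exceeded 3 counts. The log2 changes of the 9 genes ran from −3.44 for Syk to 0.35 for Fcgrt with Aβ42 and from −3.70 to 0.52, for the same genes, with Aβ40. The part of these marker shifts in them was not tested.

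Untreated microglia had more RNA of all 9 genes than untreated astrocytes (9 of 9 called higher by edgeR in a fit of all 18 libraries, where 34.2% of 11581 genes were called higher, 34.5% lower and 68.8% called at all). The libraries did not overlap for all 9 (67.1% of all genes). The log2 difference was largest for Fcgr2b, at 6.86 (SE 0.26), or 116-fold, and smallest for Fcgrt, at 1.21 (SE 0.25), or 2.32-fold. It was 5.63 for Fcgr2a, 5.15 for Fcgr1a, 4.87 for Syk, 4.66 for Btk, 4.08 for Lyn, 3.96 for Fcer1g and 3.54 for Fcgr3a. The cell types were grown and prepared as different cultures, so cell type and culture cannot be told apart.

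With the 18 libraries on 1 scale, the mean level in untreated astrocytes was 0.897% to 42.8% of that in untreated microglia over the 9 genes, with a median of 4.20%, and 1.46% to 59.6% over the 16 microglia markers, with a median of 5.23%. With Aβ42 the medians were 1.12% for the 9 genes and 2.11% for the markers, and with Aβ40 0.693% and 1.07%. Lyn was at 5.95%, 5.54% and 4.16% in control, Aβ42 and Aβ40. Fcgrt went from 42.8% to 157% and 323%, so that with fibrils its mean was higher in astrocytes than in microglia. For Syk the values were 3.43%, 0.933% and 0.693%, and for Fcgr2b 0.897%, 0.422% and 0.217%. These percentages are descriptions with no test.

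**Figure D4:**
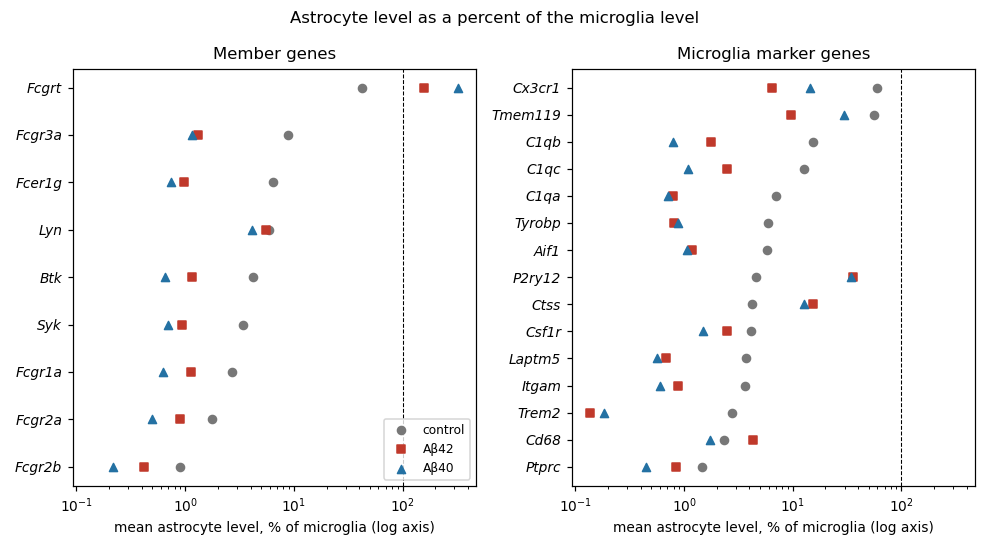
Mean level in astrocytes as a percent of that in microglia (log axis), for the 9 genes (left) and 15 of the 16 microglia markers (right), in control (circles), Aβ42 (squares) and Aβ40 (triangles); each point is a ratio of means of 3 libraries and the dashed line marks equal levels. The median of the 9 genes moved from 4.20% to 1.12% and 0.693% and that of the 16 markers from 5.23% to 2.11% and 1.07%. Fcgrt crossed the line, from 42.8% to 157% and 323%.

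The response to Aβ42 differed between the cell types for 8 of the 9 genes, and that to Aβ40 for all 9, by edgeR's test of the interaction term, where 37.3% and 32.5% of genes were called. The difference is the log2 change in microglia minus that in astrocytes. With Aβ42 it was higher for 7 (19.3% of genes, 17.9% lower), from 0.97 for Fcgr2b to 2.72 for Fcgr3a, and lower for Fcgrt, at −1.82 (SE 0.36) (adjusted p = 0.000520). With Aβ40 it was higher for 8 (16% of genes, 16.5% lower), from 0.51 for Lyn to 3.12 for Fcer1g, and lower for Fcgrt, at −2.89 (SE 0.37) (adjusted p = 7.15e-06). Fcgrt was thus the one gene of the 9 that fell in microglia relative to astrocytes. For Lyn with Aβ42 the difference was 0.10, with a 95% interval of −0.29 to 0.48. Without replicate 1 of microglia with Aβ42, Fcgr2b was 0.73 with adjusted p = 0.0574 and no longer called, and the others kept their calls. That call was also lost without astrocyte control replicate 2 (adjusted p = 0.0993), astrocyte Aβ42 replicates 2 and 3 (0.0897 and 0.0741) and microglia control replicates 1 and 2 (0.0567 and 0.0509). Fcgr2a with Aβ42 lost its call without astrocyte control replicate 3 (0.340), astrocyte Aβ42 replicate 1 (0.0969), microglia control replicate 1 (0.0509) and microglia Aβ42 replicate 3 (0.0522), and with Aβ40 without astrocyte control replicate 3 (0.0652). For Lyn with Aβ40 the adjusted p was 0.0612 with no filter on low counts and 0.0764 with the replicate block. Its call was also lost when astrocyte control replicate 2 (0.0920), astrocyte Aβ40 replicate 2 (0.0999), microglia control replicates 1 and 2 (0.0689 and 0.0915) or any of the 3 microglia Aβ40 libraries (0.0557 to 0.0773) were left out.

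The wider pathway was read from 6 lists of 91 genes in all, 83 of them listed in the microglia tables and 71 tested. In microglia 18 were higher and 33 lower with Aβ42 (27.1% and 26.6% of all genes), and 14 higher and 30 lower with Aβ40 (19.6% and 21.4% of all genes). The median log2 change over the lists was −0.31 and −0.29. Every list held calls in both directions with Aβ40, and every list but the other Fc receptors did with Aβ42.

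**Figure D5:**
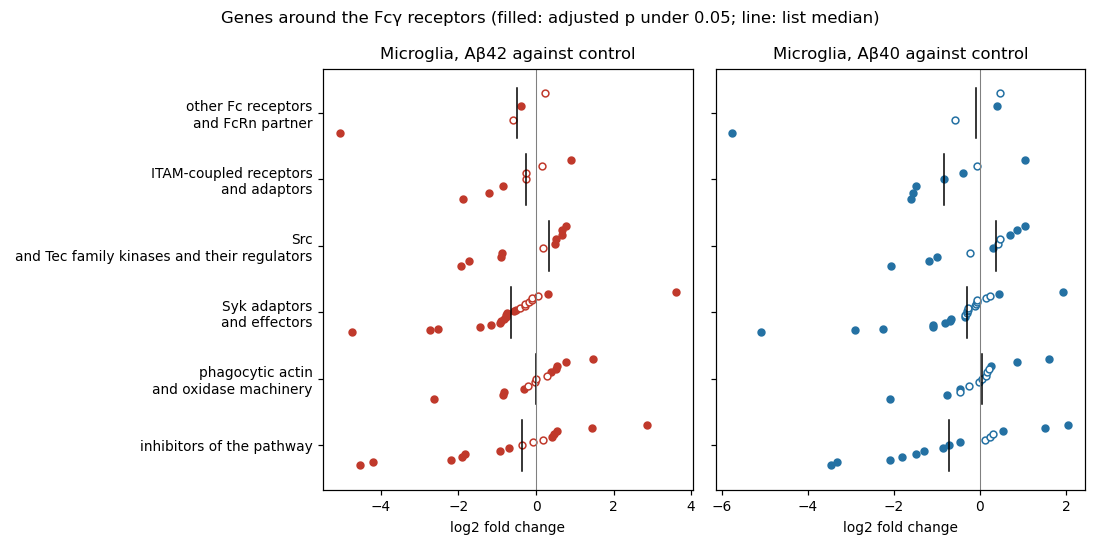
Log2 fold change of the tested genes of 6 lists around the Fcγ receptors in microglia, with Aβ42 (left) and Aβ40 (right). Points are genes, filled where the adjusted p was under 0.05, and vertical lines are list medians. The points spread to both sides of 0 in each list, with Fcrl2 and Blnk near −5 as the lowest with both fibrils, and Lat as the highest with Aβ42 and Siglec10 with Aβ40.

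Among other Fc receptors, Fcrl2, an Fc receptor-like gene, was 1640.3, 1371 and 2148 CPM in untreated microglia, 48.0, 37.3 and 68.7 CPM with Aβ42 and 33.8, 30.2 and 31.7 CPM with Aβ40. Its log2 change was −5.06 and −5.75, past that of any of the 9 genes. Trim21, the cytosolic antibody receptor, was −0.39 with Aβ42 and 0.41 with Aβ40, both called. The mast cell IgE receptor genes Fcer1a and Ms4a2 did not pass the filter.

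Among ITAM-coupled receptors and adaptors, 1 of 7 tested was higher with each fibril, Itgam, and 3 and 5 were lower. Of all genes, 27.1% were higher and 26.6% lower with Aβ42, and 19.6% and 21.4% with Aβ40. Clec7a, Trem2 and Cd300lf were lower with both, Trem2 at −0.86 and −1.61, and Hcst and Tyrobp with Aβ40. Among the Src and Tec family kinases, Fgr, a myeloid Src kinase, was higher with both fibrils, at 0.52 and 0.86, as was Yes1. Tec, the phosphatase Ptprc and the Src inhibitor Csk were lower with both, Csk at −0.92 with Aβ42 and −1.0 with Aβ40. With Aβ42 alone Src and Lck were also higher and Pag1 lower, and with Aβ40 alone Fyn was higher. Pathway genes given without levels were named after their values were seen, to spell out small counts or known partners of the 9 genes.

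Syk adaptors and effectors gave 2 higher and 13 lower of 22 tested with Aβ42 and 2 higher and 9 lower with Aβ40. The shares over all genes were 27.1% higher and 26.6% lower with Aβ42, and 19.6% and 21.4% with Aβ40. Blnk, the adaptor that links Syk to Btk and phospholipase Cγ, was 242, 215 and 282 CPM in controls, 9.20, 8.36 and 9.86 CPM with Aβ42 and 8.20, 5.59 and 8.27 CPM with Aβ40. The log2 change was −4.76 and −5.09. Lat, an adaptor best known from T cells, rose from 1.65, 1.35 and 1.53 CPM to 19.2, 17.8 and 19.5 CPM with Aβ42 and 4.83, 6.26 and 6.89 CPM with Aβ40, log2 changes of 3.60 and 1.93. Its counts were 7 to 14 in the control libraries. Pik3cd, Lat2, Plcg2, Card9 and Vav1 were among those lower with both.

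Of 13 genes tested for phagocytic actin and oxidase machinery, 5 were higher and 4 lower with Aβ42 and 3 and 3 with Aβ40. For all genes the shares were 27.1% higher and 26.6% lower with Aβ42, and 19.6% and 21.4% with Aβ40. Rac2, Ncf1 and Ncf4 were higher and Wipf1, Cyba and Cybb lower with both, and Coro1a was higher and Elmo1 lower with Aβ42. Ncf4, a cytosolic NADPH oxidase subunit, was 159 ± 25.1 CPM in controls (SD, n = 3), 442 ± 24.8 with Aβ42 and 487 ± 5.74 with Aβ40, while Cybb, the catalytic membrane subunit, was lower, at −2.63 and −2.09. Of 15 inhibitors tested, 5 were higher and 7 lower with Aβ42 and 3 and 9 with Aβ40. Inpp5d, the phosphatase that Fcgr2b recruits, was lower with both, at −1.91 and −1.81, the opposite direction to Fcgr2b. Cd22 was 5.78 ± 0.888 CPM in controls and 0.286 ± 0.113 with Aβ42 (log2 change −4.53), and Clec12a 102 ± 12.2 CPM in controls and 9.43 ± 1.28 with Aβ40 (−3.46). Siglec10 was 0.840 ± 0.307 CPM in controls and 6.72 ± 0.417 with Aβ42 (2.87), and Siglec5 44.8 ± 6.60 CPM and 128 ± 9.82 with Aβ40 (1.51).

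Between the fibrils in microglia, 6 of 71 pathway genes tested were higher and 8 lower with Aβ42 than with Aβ40. Of all genes 20.3% were called (11.3% higher and 9.01% lower), so the share of pathway genes called was near that of all genes. Lat (1.67), Dok3 (1.04) and Hcst (0.99) were higher, and Trim21 (−0.80), Clec12a (−0.76) and Pik3r1 (−0.76) lower, on the log2 scale. Without replicate 1 of Aβ42, 40 were called, and without any 1 of the other 5 libraries 2 or 3.

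Of the pathway genes, 84 were listed for astrocytes and 71 tested. With Aβ42, 15 rose and 30 fell (16.5% and 20.4% of all genes), and with Aβ40 14 rose and 35 fell (14.9% and 18.4% of all genes). Fcrl2 was 84.2 ± 11.5 CPM in controls, 3.61 ± 0.687 with Aβ42 and 1.66 ± 0.145 with Aβ40, log2 changes of −4.57 and −5.67. All 6 tested ITAM-coupled genes were lower with both fibrils, Trem2 at −5.21 and −5.49 and Clec7a at −4.10 and −4.28. Of these 6, Trem2, Tyrobp and Itgam are also among the microglia markers above. The kinases Fgr and Bmx rose, Fgr from 10.9, 16.0 and 9.22 CPM to 105, 103 and 105 CPM with Aβ42 and 89.0, 93.7 and 91.2 CPM with Aβ40 (log2 changes 3.15 and 2.96), and Bmx, a Tec family kinase, from 1.24 ± 0.585 CPM to 8.70 ± 2.0 and 6.08 ± 1.67 CPM (2.87 and 2.35). The phosphoinositide 3-kinase subunits Pik3r5 and Pik3cd were higher with both, Pik3r5 at 2.06 with Aβ42 and Pik3cd at 2.0 with Aβ40. B2m and Trim21 were higher with both, at 1.43 and 1.26 for B2m. The inhibitors gave 2 higher, Siglec5 and Siglec10, and 9 lower with each fibril, Inpp5d among the lower, at −3.71 and −4.17.

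The genes most like each of the 9 were found by Pearson's r of log2 CPM over the 18 libraries, among 11572 genes tested. The libraries fall into 2 cell types, between which all 9 genes differed, and r covers that division. The closest were Vav1 and Nrros for Fcgr1a, Psd4 and Dok2 for Fcgr2a, Plek and Bcl2a1 for Fcgr2b, Aif1 and Tyrobp for Fcgr3a, Cd53 and Lcp2 for Fcer1g, Laptm5 and Bin2 for Syk, Rgs1 and Bcl2a1 for Lyn, and Cd53 and Trpc6 for Btk, with r between 0.992 and 0.998. For Fcgrt the closest were Sidt2, at 0.962, and Grk6, at 0.948.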

How the data were processed

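RNA of 18 samples was sequenced by the study from TruSeq Stranded mRNA libraries, aligned to rat rn5 with STAR and quantified with Salmon, and DESeq2 produced the gene counts, according to its methods. The authors deposited 1 table of counts per library, whole numbers of reads per gene that are not normalized. The treatment of strand and of reads shared between genes is not given in the sources used here. Rows that name no gene held 26.0% to 34.2% of counts in astrocytes and 21.7% to 24.5% in microglia and were left out.

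Counts were scaled by TMM, filtered with filterByExpr and tested with glmQLFTest in edgeR 4.0.16 (limma 3.58.1, R 4.3.3), with the 9 libraries of a cell type together and no covariates, and with all 18 for comparisons between cell types. Adjusted p-values are Benjamini-Hochberg values over all genes tested. SE is the log2 change divided by the root of F, and 95% intervals use its t quantile. The test of Aβ42 against control was checked on simulated counts. It recovered 87.5% of the changed genes in astrocytes and 96% in microglia, with 7 and 20 unchanged genes called. The simulation gave all genes of a cell type the same spread and held no library that stood apart. It therefore does not cover the calls that depend on such a library. Alternatives were DESeq2 1.42.0 (its Wald test and its size factors), library totals, other count filters, a replicate block, the compared groups alone and each library left out.

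The 9 genes and the lists were chosen with earlier results of these data known. Pathway genes are named by a rule: in each cell type and for each fibril against control, up to 3 per direction with the largest change among those called, with libraries that did not overlap and a mean of 5 CPM or more in the higher group, and up to 3 called per direction between the fibrils. Replicates are separate samples in the labels, which do not say whether they came from separate animals or cultures, so p-values measure only the spread between these samples. Replicates differed beyond counting noise (chi-square per degree of freedom 1.76 to 44.3). The limit of 3 counts covers counting error only. Some genes of the lists are counted but not reported by name here.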

Additional observations from a re-analysis of the deposited data

Results flagged for a closer look

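The response of most of the 9 genes differed between microglia and astrocytes by a test of the difference itself, the interaction term in edgeR's quasi-likelihood test over 18 libraries. The log2 change in microglia minus that in astrocytes with Aβ42 was 1.32 for Fcgr1a, 1.20 for Fcgr2a, 0.97 for Fcgr2b, 2.72 for Fcgr3a, 2.71 for Fcer1g, 1.81 for Syk, 1.76 for Btk and −1.82 for Fcgrt, with adjusted p from 5.35e-06 to 0.0349. With Aβ40 it was 2.15 for Fcgr1a, 1.93 for Fcgr2a, 1.95 for Fcgr2b, 2.90 for Fcgr3a, 3.12 for Fcer1g, 2.25 for Syk, 0.51 for Lyn, 2.64 for Btk and −2.89 for Fcgrt, with adjusted p from 1.08e-06 to 0.0386. The values behind the differences were not alike. For Fcgr2b the level rose in microglia and was not called in astrocytes, for Syk and Btk it fell in both and further in astrocytes, and for Fcgrt it fell in microglia and was not called in astrocytes. The 2 sets of values share the control libraries. The call for Lyn with Aβ40 held in 9 of 18 other settings, that for Fcgr2b with Aβ42 in 11 of 17 and that for Fcgr2a with Aβ42 in 13 of 17, and the highest adjusted p came without 1 astrocyte library each (Aβ40 replicate 2, 0.0999; control replicate 2, 0.0993; control replicate 3, 0.340). Fcgr2a with Aβ40 was lost without astrocyte control replicate 3 (0.0652). The summed microglia markers moved in both cell types, as given above, and their part in these differences was not tested.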

How the results depend on the processing

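Over the other settings and left-out libraries, 1109 values of the 9 genes were compared with those reported. Of these, 1038 kept their direction and their side of the threshold, 44 kept the direction and lost the call, 14 gained a call and 13 changed sign, none of the 13 called in the first place. With a minimum of 10 counts in every library, 3 of the 9 were called with each fibril in astrocytes, 4 and 5 for the interactions with Aβ42 and Aβ40, and 5 between untreated cell types, since the other genes were then not tested. Between the fibrils in microglia, 0 were called with the replicate block and 0 with the compared groups alone, and 0 to 5 when 1 library was left out. Over all genes that comparison gave 2198 calls, 752 with the block, 106 with the compared groups alone and 99 to 6004 with 1 library left out. In astrocytes it gave 10, with 141 by DESeq2, 265 with the compared groups alone, 6 with the minimum of 10 counts, 0 with the block and 0 to 4 with 1 library left out. Of the pathway genes, 14 were called between the fibrils in microglia, 7 with the block, 2 with the compared groups alone and 2 to 40 with 1 library left out, and in astrocytes 0, with 3 by DESeq2 and 4 with the compared groups alone. With Aβ42 in astrocytes, 45 pathway genes were called, or 29 with the minimum of 10 counts. Whether replicate numbers pair the samples cannot be told from 3 libraries per group. Deviations of same-numbered libraries had r from −0.46 to 0.33 in astrocytes and −0.19 to 0.19 in microglia. Those of differently numbered libraries had r from −0.42 to 0.49 and −0.20 to 0.22. Outside the comparison of fibrils in microglia the block left the number of the 9 called within 1.5 times.

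Sign changes lay near 0. Lyn with Aβ42 in astrocytes was −0.0227 with library totals and −0.0336 to 0.166 with 1 library left out (−0.00446 and −0.00589 among them). With 1 library left out, Fcgr2b in astrocytes ran from −0.0333 to 0.509 with Aβ42 and from −0.379 to 0.0586 with Aβ40, and Fcgr3a from −0.0191 to 0.586 between the fibrils. In microglia between the fibrils Fcgr1a ran from −0.186 to 0.0241 (0.0112 without Aβ40 replicate 1), Fcer1g from −0.498 to 0.0705 and Fcgr2a from −0.145 to 0.167 (−0.0492 without Aβ42 replicate 3). The interaction of Lyn with Aβ42 ran from −0.0318 to 0.207. The cause of these changes was not tested. Fcgr2a with Aβ40 in microglia was called by DESeq2 (adjusted p = 0.0376), with the replicate block (0.0209) and with the compared groups alone (0.0145).

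Counts were few for some astrocyte values, with 5 to 12 of Btk with Aβ42, and the microglia Aβ40 libraries held 2271834 to 4425805 counts in all. How far depth limits these comparisons was not tested.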
